A study of Homo sapiens with 6 samples.

Results

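H/ACA small nucleolar ribonucleoproteins are the particles to which SNORA67, the RNA targeted in this study, belongs. The genes described here encode 8 proteins that form or assemble these particles, and were taken by symbol as DKC1, NOP10, NHP2, GAR1, NAF1, SHQ1, RUVBL1 and RUVBL2. All 8 are among the 19655 genes of the deposited table, and all 8 are among the 14062 genes that passed the filter on low counts. RNA was sequenced from HCT116 cells, by their label, a human colorectal carcinoma line in wide use, in 3 libraries of cells transfected with an antisense oligonucleotide against SNORA67 (ASO) and 3 libraries of control cells (NC). Such oligonucleotides are short nucleic acids that base-pair with their target RNA and can bring about its degradation. No label gives the dose, the time of harvest, the oligonucleotide sequence or what the NC cells received. No label says either that the libraries came from separate cultures, so the p-values cover the spread among libraries alone, and that spread may be technical.

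An H/ACA particle carries a guide RNA of paired hairpins, closed by an H box in the hinge and an ACA near the 3′ end, and converts a chosen uridine of another RNA into pseudouridine. Dyskerin (DKC1) is the enzyme, NOP10 and NHP2 bind next to it, and GAR1 completes the mature particle. NAF1 holds the place of GAR1 during assembly in the nucleus. SHQ1 is a chaperone that shields newly made dyskerin, and the paired ATPases RUVBL1 and RUVBL2, working within the R2TP complex and with HSP90, take part in its release. The same core proteins stabilise the RNA of telomerase, and inherited changes in several of them cause the telomere disorder dyskeratosis congenita.

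SNORA67 itself shows the layout of such a guide and is printed because it is the RNA the oligonucleotide was directed at. It lies on chromosome 17 at 7577955 to 7578091 (GRCh38, plus strand), in an intron of the principal EIF4A1 transcript, and is 137 bases long in GENCODE. Capitals mark the match to the H box pattern ANANNA that lies nearest the middle of the RNA, 1 of 3 matches to that pattern, and the ACA with 3 bases after it.
SNORA67: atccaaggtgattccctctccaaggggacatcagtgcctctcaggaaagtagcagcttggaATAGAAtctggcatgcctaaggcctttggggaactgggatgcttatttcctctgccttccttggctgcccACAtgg
SNORA67 was not analysed here, so the knockdown was not checked at its target. Its host gene EIF4A1, an RNA helicase of translation initiation, was at 617 ± 46.3 CPM in ASO and 1544 ± 55.3 CPM in NC (SD, n = 3 each; CPM, counts scaled to a TMM-adjusted library total of 1e6). DKC1 is also a host, with SNORA36A and SNORA56 annotated in introns of its principal transcript, and these were not analysed here either. The 129 bases of SNORA56 lie within exons of other DKC1 transcripts.

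Column totals were 49136502 to 54905215 estimated counts in ASO and 50728524 to 53715905 in NC. The most frequent count above 0 was 4 in every library, so 1 sequenced fragment may be worth about 4 counts, which would give 12.3 to 13.7 M fragments per library (M, 1e6). Between ASO and NC, 46.0% of all genes tested passed the threshold of an edgeR adjusted p under 0.05, 26.8% higher in ASO and 19.1% lower, and 57.5% had groups that did not overlap, 25.9% with ASO lower. The label of the cells was set against markers, of which those named here were chosen after their values were seen. The epithelial keratin gene KRT8 was at 1166 ± 181 CPM in ASO and 1360 ± 94.3 CPM in NC, while the epithelial adhesion genes EPCAM (2.93 ± 0.51 CPM in ASO and 4.37 ± 1.13 CPM in NC) and CDH1 (1.81 ± 0.13 CPM in ASO and 1.06 ± 0.23 CPM in NC) were low and ESRP1 had no count in any library. Of the mesenchymal genes, the filament gene VIM was at 1290 ± 106 CPM in ASO and 1201 ± 82.2 CPM in NC and COL5A1, which encodes a fibrillar collagen chain, was at 1280 ± 125 CPM in ASO and 611.8 ± 33.3 CPM in NC. The fibroblast genes DCN (1.73 ± 0.15 CPM in ASO and 3.31 ± 0.37 CPM in NC) and FAP (2.87 ± 1.64 CPM in ASO and 4.14 ± 1.09 CPM in NC) were low, COL1A2 had a count in 1 library of NC alone, and POSTN had none in any. Several others of the mesenchymal and fibroblast list were far higher. THY1 was at 172 ± 18.3 CPM in ASO and 192 ± 14.7 CPM in NC. SPARC was at 546 ± 25.0 CPM in ASO and 685 ± 8.4 CPM in NC, and FN1 at 413 ± 26.3 CPM in ASO and 226 ± 30.1 CPM in NC. Other epithelial genes were present. KRT18 was at 738 ± 79.15 CPM in ASO and 712 ± 55.8 CPM in NC, and ELF3 at 53.3 ± 7.44 CPM in ASO and 69.2 ± 7.29 CPM in NC. CLDN7 was at 8.07 ± 0.84 CPM in ASO and 7.84 ± 0.82 CPM in NC. Further genes of the colon epithelial list were lower still. CDX2 was at 0.19 ± 0.12 CPM in ASO and 0.31 ± 0.17 CPM in NC, and KRT20 at 0.24 ± 0.09 CPM in ASO and 0.17 ± 0.19 CPM in NC. CLDN3 was at 0.09 ± 0.08 CPM in ASO and 0.20 ± 0.03 CPM in NC. Low EPCAM, CDH1, CDX2 and KRT20 beside high VIM go against the label of a colorectal epithelial line, while KRT8, KRT18 and ELF3 do not. The identity of the cells was not tested. The summed level of 14 mesenchymal genes was 4113 to 4866 CPM in ASO and 3390 to 3819 CPM in NC, that of 15 colon epithelial genes was 1719 to 2262 CPM in ASO and 1990 to 2293 CPM in NC, and that of 11 blood and endothelial genes was 22.2 to 30.8 CPM in ASO and 9.81 to 11.1 CPM in NC, with PTPRC and CD3E at 0 in all libraries. KRT8 and KRT18 made up most of the colon epithelial sum. The part of the marker genes in the results below was not tested. In such bulk RNA, fewer cells of a type and less RNA per cell cannot be told apart.

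Of the 8 genes, 3 were lower in ASO, 0 were higher and 5 did not pass the edgeR test. NHP2, RUVBL1 and RUVBL2 were the ones that fell, by 21.0%, 22.3% and 26.2%. The share called, 37.5%, lay below the 46.0% of all genes tested, and the 3 lower calls compare with 19.1% of all genes called lower. The median log2 fold change (ASO over NC) was -0.35 over the 8 genes and 0.01 over all genes tested. Higher members also numbered 0 in DESeq2 and limma-voom, and none of the 3 tools gave a higher member at an unadjusted p under 0.05. ASO and NC were apart in every library for 5 of the 8 genes, a share near the 57.5% of all genes, and ASO was the lower group in 4 of them, against 25.9% of all genes.

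**Figure D1:**
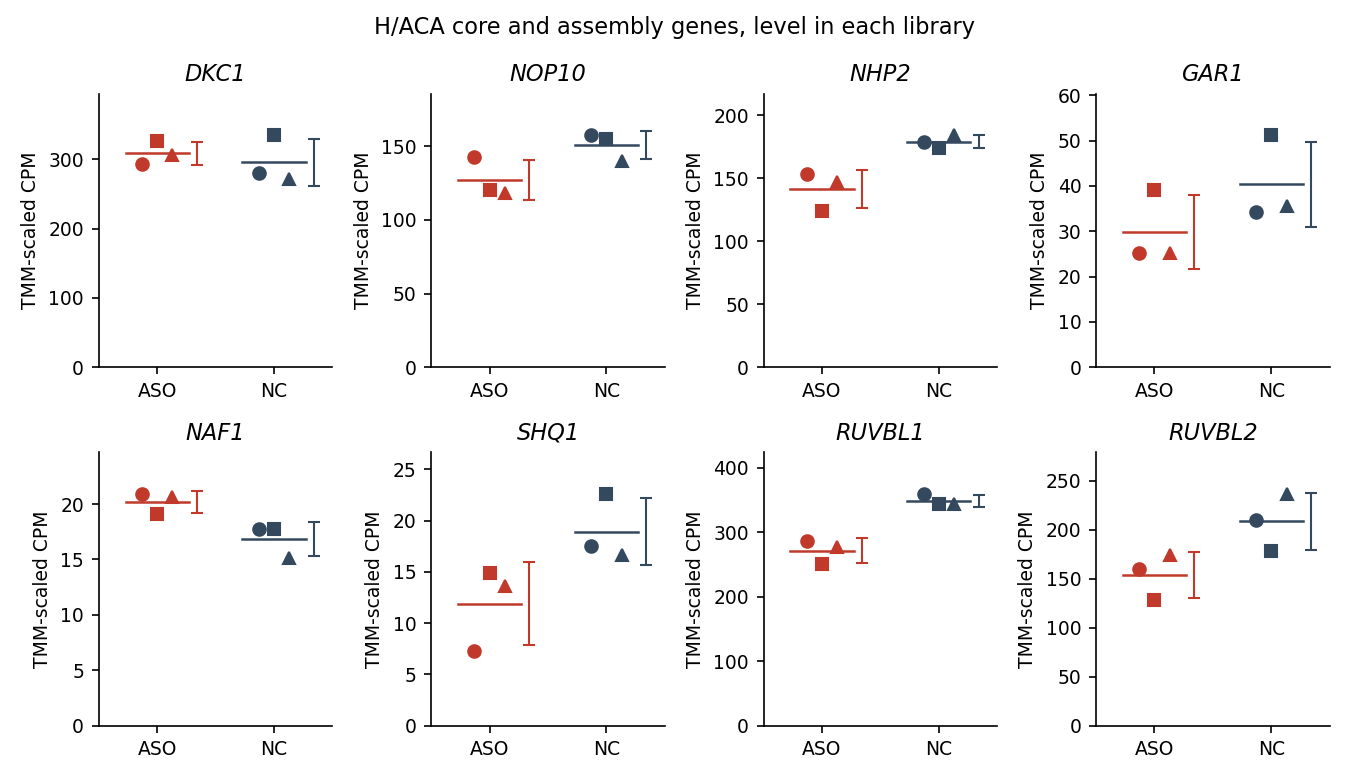
Level of each of the 8 genes in TMM-scaled CPM, with ASO on the left and NC on the right of each panel; points are libraries (circle, square and triangle for replicates 1, 2 and 3), lines are means and bars beside them are 1 SD. NHP2, SHQ1, RUVBL1 and RUVBL2 lie lower in all ASO libraries than in any NC library, NAF1 lies higher in all of them, and the other 3 genes overlap.

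DKC1 encodes the pseudouridine synthase of the particle (chromosome X, 154762853 to 154777689, 15 exons in its principal GENCODE transcript). Its level was 293, 326 and 307 CPM in the ASO libraries and 280, 335 and 272 CPM in the NC libraries. The groups overlapped, and the highest value of each group was in its library 2. The fitted log2 fold change was 0.06 with a standard error of 0.10 and a 95% interval of -0.17 to 0.29 (edgeR adjusted p = 0.637). On the linear scale this interval ran from 0.89 to 1.23 times the NC level. Leaving out NC replicate 3 gave a log2 fold change of -0.0062. Removing the trend of fold changes with GC content and transcript length, together with the mean of the genes fitted, gave -0.10.

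NHP2 (chromosome 5, 178149463 to 178153894, 4 exons) encodes the core protein of the L7Ae family, which binds NOP10. It was at 153, 124 and 147 CPM in ASO and at 178, 174 and 184 CPM in NC. Every ASO library was lower than every NC library, and the NC libraries lay close together. The log2 fold change was -0.34 ± 0.10 (standard error), an edgeR adjusted p of 0.0241. The call ended without ASO replicate 3 (log2 fold change -0.37, adjusted p = 0.0583) and without NC replicate 1 (-0.34, adjusted p = 0.0615), the range of adjusted p with 1 library left out being 0.0202 to 0.0615. Of the 865 bases of its principal transcript, 379 overlap exons of RMND5B on the opposite strand, a ubiquitin ligase subunit gene that was itself lower in ASO, at 37.8 ± 3.11 CPM against 56.8 ± 2.49 CPM in NC (edgeR adjusted p = 0.00345). Whether the counting used strand is not stated in the labels, so reads of the pair cannot be told apart in that stretch. GENCODE also annotates 2 processed pseudogenes of NHP2, between which and NHP2 reads could have been split.

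NOP10 (chromosome 15, 34339159 to 34343180, 2 exons), the smallest core protein, was at 142, 120 and 118 CPM in ASO and at 158, 155 and 140 CPM in NC. The highest ASO value exceeded the lowest NC value by a small margin. Its log2 fold change of -0.25 ± 0.10 had a 95% interval of -0.49 to -0.01 before adjustment, and an edgeR adjusted p of 0.0827. Without ASO replicate 1 it was called lower (log2 fold change -0.34, adjusted p = 0.0349), the range with 1 library left out being 0.0349 to 0.242. GAR1 (chromosome 4, 109815510 to 109824740, 7 exons), the protein that completes the particle, was at 25.1, 39.2 and 25.1 CPM in ASO and at 34.4, 51.2 and 35.7 CPM in NC. Library 2 was the highest of each group, and the groups overlapped through it. The log2 fold change of GAR1 was -0.44 ± 0.23 (edgeR adjusted p = 0.15). Left without ASO replicate 2, it was -0.69 with an adjusted p of 0.0236, the range with 1 library left out being 0.0236 to 0.481.

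The assembly factors NAF1 and SHQ1 were the least abundant of the set and went in opposite directions, neither passing the test. NAF1 (chromosome 4, 163110073 to 163166890, 8 exons) was at 20.9, 19.1 and 20.6 CPM in ASO and at 17.8, 17.8 and 15.1 CPM in NC. All ASO libraries were higher, by a log2 fold change of 0.26 ± 0.13 with a 95% interval of -0.05 to 0.57 (edgeR adjusted p = 0.147). SHQ1 (chromosome 3, 72749277 to 72861914, 11 exons) was at 7.28, 14.9 and 13.6 CPM in ASO and at 17.5, 22.6 and 16.7 CPM in NC. All ASO libraries were lower, and the first of them stood well below the other ASO libraries. SHQ1 had the largest difference of the 8 genes and the widest interval, a log2 fold change of -0.67 ± 0.27 with bounds of -1.30 and -0.04 (edgeR adjusted p = 0.0788). Its counts ran from 391 to 743 in ASO and from 842 to 1232 in NC, and GENCODE annotates 1 processed pseudogene of it. DESeq2 called it lower (adjusted p = 0.0433), as did edgeR without ASO replicate 2 (adjusted p = 0.0437). Over the other settings without a library left out its adjusted p ran from 0.0298 to 0.0876, and over the settings with 1 library left out from 0.0437 to 0.236.

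RUVBL1 and RUVBL2 encode ATPases that join in mixed rings and also serve chromatin remodelling complexes. RUVBL1 (chromosome 3, 128064782 to 128153914, 11 exons) was at 287, 250 and 277 CPM in ASO and at 360, 344 and 345 CPM in NC. The ASO libraries all lay lower, and this was the smallest p among the 8 genes, with a log2 fold change of -0.36 ± 0.08 (standard error; edgeR adjusted p = 0.00774). The call held with each library left out in turn (adjusted p from 0.00682 to 0.0328) and in the 9 other settings that gave a test (0.00326 to 0.0102). None of the 1761 bases of its principal transcript overlaps exons of another gene, while longer transcripts share 370 bases with EEFSEC and 344 with SEC61A1 on the opposite strand. EEFSEC was itself lower in ASO, at 21.2 ± 3.31 CPM against 31.0 ± 3.26 CPM in NC (edgeR adjusted p = 0.0216). SEC61A1 did not pass (edgeR adjusted p = 0.449). RUVBL2 (chromosome 19, 48993562 to 49015970, 15 exons) was at 159, 128 and 174 CPM in ASO and at 210, 178 and 237 CPM in NC. The ASO libraries again all lay lower, though the third of them came close to the second NC library. The log2 fold change was -0.44 ± 0.14 (edgeR adjusted p = 0.038). With 1 library left out the log2 fold change stayed negative, from -0.54 to -0.33. The call ended without ASO replicate 1 (-0.47, adjusted p = 0.0657), ASO replicate 2 (-0.33, 0.055), NC replicate 1 (-0.43, 0.084) or NC replicate 3 (-0.35, 0.0935), within a range of adjusted p of 0.0234 to 0.0935. Of the 2009 bases of its principal transcript, 16 overlap exons of LHB on the opposite strand.

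**Figure D2:**
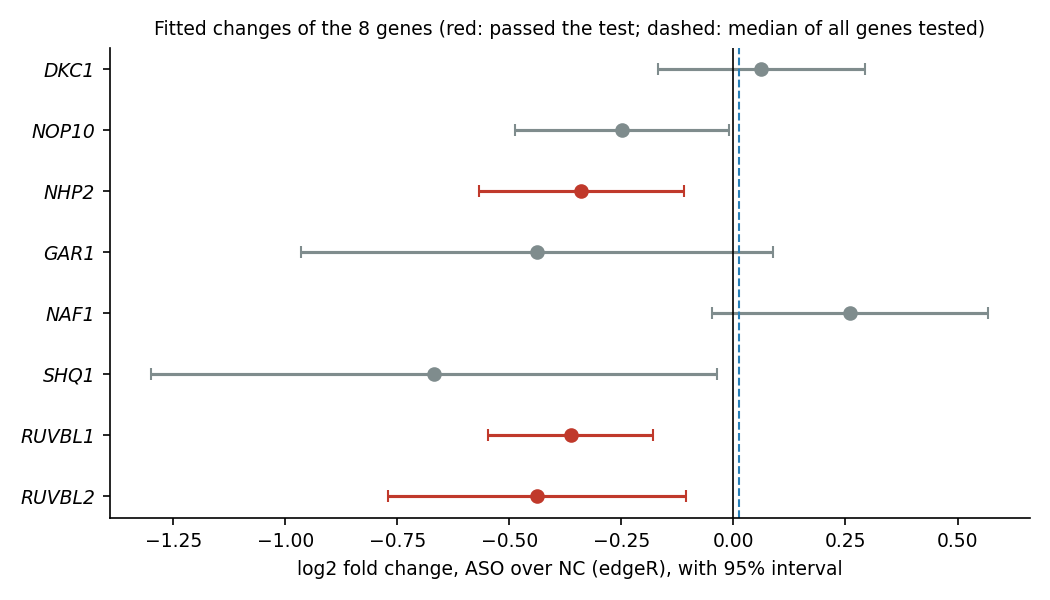
Fitted log2 fold change of each gene, ASO over NC, with its 95% interval from edgeR before adjustment; red marks genes with an adjusted p under 0.05, the solid line is 0 and the dashed line is the median of all genes tested (0.01). NHP2, RUVBL1 and RUVBL2 passed the test, while SHQ1 has the lowest estimate (-0.67) and the widest interval.

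Fold changes over all genes varied with GC content and transcript length, a trend that held 7.73% of their variance. NHP2 and RUVBL2 have principal transcripts of 57.1% and 60.1% GC, above the median of 50.2% over genes of at least 1 CPM. With the trend removed, which leaves values with no test, the log2 fold changes were -0.93 for NHP2, -0.68 for RUVBL1, -1.10 for RUVBL2 and -0.54 for NOP10. Those of GAR1, SHQ1 and NAF1 were -0.51, -0.60 and 0.25. The mean fold change of the genes fitted was subtracted from these values too, so part of each shift may be that mean.

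Levels between genes were compared per kilobase of the principal transcript. In ASO, NOP10 stood highest at 229 ± 24.1 CPM per kb, followed by NHP2 (163 ± 17.6), RUVBL1 (154 ± 10.8), DKC1 (120 ± 6.51), RUVBL2 (76.5 ± 11.6), GAR1 (24.4 ± 6.65), NAF1 (10.6 ± 0.52) and SHQ1 (4.14 ± 1.41). In NC the order was the same, with NOP10 at 272 ± 17.0 CPM per kb, NHP2 at 207 ± 5.73, RUVBL1 at 198 ± 5.26, DKC1 at 115 ± 13.2, RUVBL2 at 104 ± 14.6, GAR1 at 33.0 ± 7.65, NAF1 at 8.85 ± 0.80 and SHQ1 at 6.58 ± 1.12. NHP2 and RUVBL1 overlapped in both groups, and DKC1 and RUVBL2 overlapped in NC. Every other pair of neighbours in the order was apart in all libraries of its group. GAR1 was thus the scarcest core mRNA per length in both groups.

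Ratios inside a library do not depend on how libraries are scaled, and are given as values with no test. The ratio of SHQ1 to DKC1 per length was 0.0223, 0.0408 and 0.0398 in ASO and 0.0559, 0.0606 and 0.0549 in NC, so the groups did not overlap. The ratio of GAR1 to DKC1 was 0.181, 0.253 and 0.172 in ASO and 0.258, 0.322 and 0.276 in NC, again without overlap. RUVBL1 over DKC1 also did not overlap, at 1.44, 1.12 and 1.32 in ASO and 1.88, 1.503 and 1.85 in NC. NHP2 over DKC1 was 1.56, 1.13 and 1.43 in ASO and 1.90, 1.55 and 2.02 in NC, which overlapped by a small margin, and NOP10 over DKC1 was 2.26, 1.72 and 1.79 in ASO and 2.62, 2.16 and 2.40 in NC, which overlapped too. NAF1 over GAR1, the assembly protein over the one that replaces it, was 0.535, 0.313 and 0.527 in ASO and 0.332, 0.223 and 0.272 in NC. That ratio overlapped through ASO library 2, where GAR1 was highest. RUVBL1 over RUVBL2 was 2.06, 2.23 and 1.82 in ASO and 1.95, 2.20 and 1.66 in NC, so this ratio overlapped between the groups while both genes were lower in ASO.

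**Figure D3:**
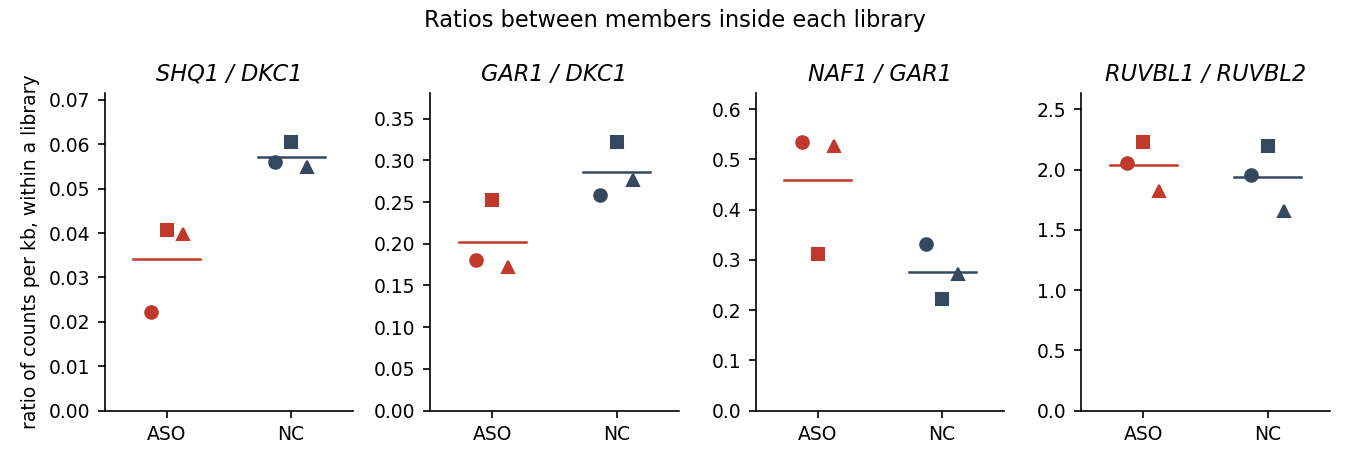
Ratios of estimated counts per kilobase between members within each library, ASO on the left and NC on the right; points are libraries (circle, square and triangle for replicates 1, 2 and 3) and lines are means. SHQ1 / DKC1 and GAR1 / DKC1 are lower in every ASO library than in any NC library, while NAF1 / GAR1 and RUVBL1 / RUVBL2 overlap.

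The promoters of RUVBL1 and RUVBL2 are shown because these paired genes were both lower in ASO. Each is the 250 bases before the RefSeq transcript start nearest the principal GENCODE transcript (GRCh38.p14), 5′ to 3′ on the gene's strand, and capitals mark CCAAT or its reverse complement ATTGG. RUVBL1 is read from chr3:128123813-128124062 on the minus strand and RUVBL2 from chr19:48993198-48993447 on the plus strand.
RUVBL1: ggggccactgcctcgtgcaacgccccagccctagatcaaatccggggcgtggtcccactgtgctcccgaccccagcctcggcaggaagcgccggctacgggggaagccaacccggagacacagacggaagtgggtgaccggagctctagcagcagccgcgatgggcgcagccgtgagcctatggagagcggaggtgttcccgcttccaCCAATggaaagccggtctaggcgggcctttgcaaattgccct
RUVBL2: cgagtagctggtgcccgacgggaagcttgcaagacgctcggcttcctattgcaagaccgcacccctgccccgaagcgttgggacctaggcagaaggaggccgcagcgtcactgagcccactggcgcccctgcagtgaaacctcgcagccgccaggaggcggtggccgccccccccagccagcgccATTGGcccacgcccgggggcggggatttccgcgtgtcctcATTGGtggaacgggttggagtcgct
Promoters of 7 of the 8 genes were matched by symbol, NAF1 being the one without an entry. RUVBL1 held 1 such match, RUVBL2 2 and NHP2 2, and SHQ1, which did not pass the test, held 1. DKC1, NOP10 and GAR1 held 0. Of 35116 RefSeq windows of that length, 32.0% held at least 1. The E-box CACGTG occurred in the window of NOP10 alone among these 7 (2 matches, against 6.3% of all windows with any), and the ETS-type CCGGAAG, or its reverse complement CTTCCGG, in those of NOP10, GAR1 and SHQ1 (8.5% of all windows). These are letter matches and not measured sites. Exons of the gene itself cover 122 of the 250 bases for DKC1, 82 for NHP2, 41 for NOP10, 35 for SHQ1 and 12 for RUVBL1. For GAR1 and RUVBL2 they cover 0.

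Among partners of the RUVBL ATPases in the R2TP and HSP90 machinery, 5 of 16 listed and tested were lower in ASO, 2 were higher and 9 did not pass. The share called was 43.8%, near the 46.0% of all genes tested. HSP90AA1, the inducible cytosolic HSP90, was at 1077 ± 336 CPM in ASO and 3088 ± 498 CPM in NC (-1.52 on the log2 scale, edgeR adjusted p = 0.00111). RPAP3, the R2TP scaffold that joins HSP90 to the ATPases, was at 12.9 ± 2.80 CPM in ASO and 24.3 ± 4.05 CPM in NC (log2 fold change -0.92, edgeR adjusted p = 0.00776). PDRG1, a prefoldin-like subunit attached to R2TP, was higher, at 126 ± 8.97 CPM in ASO and 53.5 ± 1.97 CPM in NC, and ZNHIT2 was higher at 29.2 ± 5.88 CPM in ASO and 17.8 ± 2.49 CPM in NC (edgeR adjusted p = 4.62e-05 and 0.0163). PIH1D1, the other R2TP subunit, did not pass, at 42.2 ± 14.7 CPM in ASO and 46.5 ± 10.1 CPM in NC (edgeR adjusted p = 0.678). It was named after its values were seen. With 1 library left out, 3 to 7 of this list were lower and 1 to 3 higher, and the call of ZNHIT2 ended without ASO replicate 1 (adjusted p = 0.0513) or ASO replicate 3 (0.0627).

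The box C/D particles, which guide 2′-O-methylation, share the assembly machinery but not the core. Of 9 of their core and assembly genes, 2 were lower in ASO, 0 were higher by edgeR and 7 did not pass, with a median log2 fold change of -0.13. The share called was 22.2%, below the 46.0% of all genes tested, and the share lower 22.2%, near 19.1%. DESeq2 and limma-voom also called 0 higher, while before adjustment 2 passed 0.05 upward by edgeR, 2 by DESeq2 and 1 by limma-voom. With 1 library left out, edgeR called 0 to 2 higher. With every library kept, it called 1 higher under scaling by library totals only, counts divided by 4 or the replicate block. NOP58 was at 36.2 ± 5.60 CPM in ASO and 54.9 ± 4.59 CPM in NC (log2 fold change -0.60, edgeR adjusted p = 0.00967). The methyltransferase FBL, the counterpart of dyskerin, was at 287 ± 15.3 CPM in ASO and 368 ± 20.8 CPM in NC (log2 fold change -0.36, edgeR adjusted p = 0.00851). The difference between the H/ACA and box C/D lists was not tested.

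TERT, the catalytic subunit of the telomerase that uses an H/ACA RNA, was low and higher in ASO, at 6.75 ± 1.89 CPM against 3.02 ± 0.41 CPM in NC (log2 fold change 1.16, edgeR adjusted p = 0.00879). Among 8 telomerase, Cajal body and nucleolar partner genes it was the 1 higher gene. Of this list 25.0% were called, against 46.0% of all genes tested. GEMIN2, of the SMN complex that builds splicing particles, was the 1 lower gene, at 6.15 ± 0.82 CPM in ASO and 10.6 ± 2.25 CPM in NC (edgeR adjusted p = 0.0184). Its call ended without ASO replicate 3, NC replicate 2 or NC replicate 3 (adjusted p from 0.0609 to 0.0658), each of which left 0 lower in this list, while TERT passed with every library left out in turn. Of 8 genes of snoRNA end maturation, 2 were higher and 2 lower, a share called of 50.0%, near the 46.0% of all genes tested. MTREX, the helicase that feeds RNA to the nuclear exosome, and the exonuclease XRN2 were lower, by log2 fold changes of -1.26 and -0.48 (edgeR adjusted p = 0.0144 and 0.00829). ZCCHC8, which joins MTREX in the nuclear exosome targeting complex, and the deadenylase TOE1 were higher, by 1.22 and 0.86 (edgeR adjusted p = 0.0092 and 0.00175). MTREX lost its call without ASO replicate 3 or NC replicate 2 (adjusted p = 0.0557 and 0.061) and ZCCHC8 without ASO replicate 2 (0.0505).

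Enzymes that make pseudouridine without a guide RNA were lower in 3 and higher in 1 of 12. The share called was 33.3%, against 46.0% of all genes tested, and the share lower 25.0%, against 19.1%. With the replicate number as a block, 4 were lower and 3 higher, while 52.8% of all genes tested were called, 24.8% lower. RPUSD3, a mitochondrial member, was at 61.5 ± 7.36 CPM in ASO and 129 ± 10.4 CPM in NC (log2 fold change -1.07, edgeR adjusted p = 0.00034). PUS7 and RPUSD4 were lower by log2 fold changes of -0.66 and -0.49, and PUS1 was higher by 0.50 (edgeR adjusted p = 0.00369, 0.00293 and 0.02). The call of PUS1 ended without ASO replicate 1, ASO replicate 3, NC replicate 1 or NC replicate 2 (adjusted p from 0.0534 to 0.0789), and with 1 library left out 0 to 1 of this list were higher and 3 to 4 lower. In the chromatin complexes that hold RUVBL1 and RUVBL2, 9 genes were higher and 6 lower of 30, with a median log2 fold change of 0.09. The share called was 50.0%, near the 46.0% of all genes tested, and the share higher 30.0%, near 26.8%. INO80, the ATPase of its own complex, was at 161 ± 6.20 CPM in ASO and 79.5 ± 0.47 CPM in NC (edgeR adjusted p = 5.59e-05). EPC1 and INO80D were higher by log2 fold changes of 1.17 and 1.14, and ACTR6, an actin-related subunit of the SRCAP complex, was lower by -1.22 (edgeR adjusted p = 0.000476, 0.000633 and 0.0307). With 1 library left out, 5 to 9 of these 30 were higher and 3 to 6 lower, and ACTR6 lost its call without ASO replicate 3 or any 1 of the NC libraries (adjusted p from 0.0643 to 0.101).

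**Figure D4:**
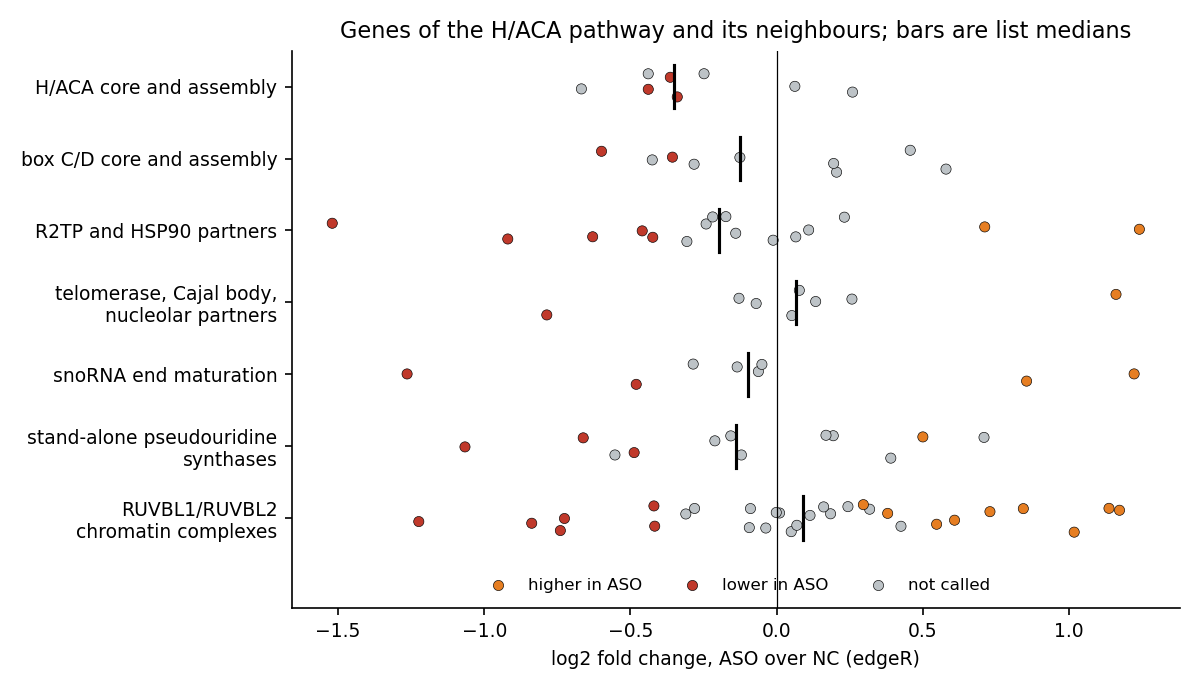
Log2 fold change, ASO over NC, of every tested gene in the H/ACA set and 6 related lists; each point is a gene, coloured by its edgeR call, and black bars are list medians. The H/ACA median is -0.35, and the lists of R2TP partners, snoRNA end maturation and chromatin complexes each spread from below -1 to above 1.

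Other genes whose levels over the 6 libraries ran most like those of RUVBL1, the member with the smallest p, were HDAC1, a histone deacetylase gene, ALDH2, a mitochondrial aldehyde dehydrogenase gene, and SNRPD3, which encodes a core protein of splicing particles. Their centred log2 profiles differed from that of RUVBL1 by root mean square distances of 0.0214, 0.0221 and 0.0224 among 9095 genes of at least 10 CPM, of which 550 lay within 0.1. HDAC1 was at 187 ± 10.4 CPM in ASO and 244 ± 3.62 CPM in NC. This profile was therefore shared by many genes.

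**Figure D5:**
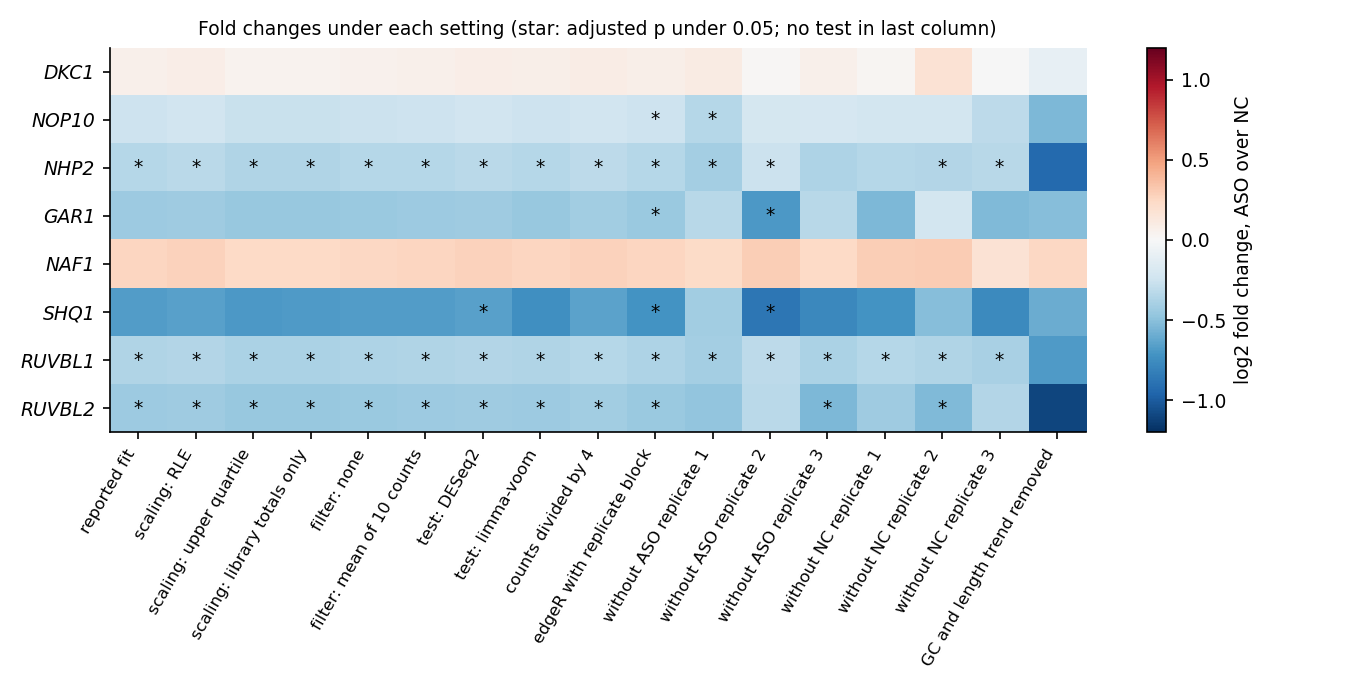
Log2 fold change of each gene, ASO over NC, under the reported fit and 16 other settings, with stars for an adjusted p under 0.05; the last column, with GC and length trends removed, has no test. RUVBL1 carries a star in every column with a test, NHP2 and RUVBL2 lose theirs when some single libraries are left out, and DKC1 and NAF1 carry none.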

How the data were processed

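The authors deposited whole-number estimated counts per gene, 1 column per library, with no scaling to depth. FastQC, STAR, StringTie, DESeq2 and hg38 are named without versions or roles per the submitters' processing notes; strand setting and annotation release are not stated there. The analysis ran in R 4.3.3 (edgeR 4.0.16, DESeq2 1.42.0, limma 3.58.1). The function filterByExpr chose the genes (minimum count 10, total 15), TMM scaled the libraries (factors 0.978 to 1.02), and edgeR's quasi-likelihood test with robust dispersion set ASO against NC, with Benjamini-Hochberg adjustment over all 14062 genes tested and a threshold of 0.05. Standard errors were the log2 fold change divided by the square root of F, and 95% intervals used the test's degrees of freedom. Lengths, GC content and exon overlaps came from GENCODE 29 (GRCh38) principal transcripts, and promoters from RefSeq. The GC and length trend was a spline of 4 degrees of freedom each over genes of at least 1 CPM. The fit had an intercept, so its removal also subtracted the mean log2 fold change of those genes. The fits were tested on simulated data. No pair of replicates of a group agreed within counting noise, so none was treated as a repeat deposit of another; this does not show separate cultures.

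The members and lists were chosen with earlier results of these data known. Named genes were all 8 members, EIF4A1, up to 4 called genes per related list by size of change at 1 CPM or more, and the 3 genes nearest to the member of smallest p. PIH1D1, CD163, the genes that overlap members and the markers set against the cell label were named after their values were seen. Alternatives were other scalings, filters and tools, counts divided by 4, a replicate block, the trend removal and leaving out each library.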

Additional observations from a re-analysis of the deposited data

How the results depend on the processing

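RUVBL1 kept its direction and its call in all 15 alternatives with a test. NHP2 and RUVBL2 kept theirs in all 9 alternatives that used every library, and in 4 and 2 of the 6 that left out 1 library. The count of members lower in ASO was 3 and ran from 1 to 4 with 1 library left out, being 1 without NC replicate 1, where RUVBL1 alone passed. The count of members higher was 0 throughout. DKC1, which was not called, ran from -0.0062 to 0.17 (log2 fold change) with 1 library left out, changing sign without NC replicate 3. With the GC and length trend and the mean of the genes fitted removed, DKC1 was at -0.10. The cause of these sign changes was not tested. Over all genes, the count lower in ASO was 2692 and ran from 1755 to 3199 with 1 library left out, with 1755 when NC replicate 1 was left out and 1764 when ASO replicate 3 was. The count higher was 3772 and ran from 3128 to 3927. With the replicate number as a block, 6 members were lower, NOP10, GAR1 and SHQ1 joining the others (edgeR adjusted p = 0.0228, 0.00756 and 0.0298). The block also raised the share of all genes called lower, to 24.8% from 19.1% in the reported fit. The replicate numbers share no stated culture or day, and deviations of same-numbered libraries correlated at 0.0525, 0.188 and 0.0152 across genes for numbers 1, 2 and 3. ASO replicate 1 correlated best with NC replicate 3 (0.0919), and ASO replicate 3 with NC replicate 1 (0.0518). ASO replicate 2 correlated at -0.093 and -0.0988 with NC replicates 1 and 3, and NC replicate 2 at -0.142 and -0.0652 with ASO replicates 1 and 3. Deviations were centred within each group, so these negative values follow in part from the 0.188 and add little to it. The libraries numbered 2 deviated alike to that extent, and whether they share a source was not tested. The reported fit did not take the numbers to pair the libraries. SHQ1 and NAF1 had the fewest counts, 391 to 1232 and 763 to 1124 per library; with all counts divided by 4, SHQ1 had an adjusted p of 0.0792 against 0.0788.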

Other observations

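Genes of the marker lists moved in both directions. Of 12 colon epithelial genes tested, 3 were higher in ASO and 0 lower by edgeR, with 1 lower at an unadjusted p under 0.05, 1 lower in DESeq2 and 0 in limma-voom. The share called was 25.0%, against 46.0% of all genes tested. LGALS4 was at 18.1 ± 2.65 CPM in ASO and at 0.0066 ± 0.011 CPM in NC, VIL1 at 8.88 ± 6.97 CPM in ASO and 0.067 ± 0.12 CPM in NC, and KRT19 at 1.66 ± 0.40 CPM in ASO and 0.050 ± 0.087 CPM in NC. These 3 genes passed the count filter through their ASO counts, so they could only be called higher. Of 12 mesenchymal genes tested, 4 were higher and 4 lower. Here the share called was 66.7%, against 46.0% of all genes tested. COL1A1 was at 374 ± 41.1 CPM in ASO and 160 ± 20.5 CPM in NC, and COL3A1 at 2.29 ± 0.55 CPM in ASO and 0.58 ± 0.025 CPM in NC. PDGFRB was at 41.0 ± 3.99 CPM in ASO and 101 ± 8.09 CPM in NC, and LUM at 1.87 ± 0.29 CPM in ASO and 4.53 ± 0.91 CPM in NC. Of 11 blood and endothelial genes listed, 6 were tested. Of these, 4 were higher and 0 lower by edgeR, DESeq2 and limma-voom, also at an unadjusted p under 0.05. The share called was 66.7%, against 46.0% of all genes tested, and the share higher 66.7%, against 26.8%. CD79A (4, 5 and 8 counts in NC) and CD163 (0 in every NC library) passed the count filter through their ASO counts. They could only be called higher, so the match among the 3 tools adds no support for them. CD14 (8, 17 and 20 counts in NC) also needed its ASO counts to pass, its first NC library being below the minimum count of 10. The 66.7% higher thus includes genes that entered the test through ASO. CD79A was at 7.04 ± 1.29 CPM in ASO and 0.11 ± 0.044 CPM in NC, CD14 at 1.14 ± 0.16 CPM in ASO and 0.29 ± 0.12 CPM in NC, and PECAM1 at 9.73 ± 1.04 CPM in ASO and 5.72 ± 0.16 CPM in NC. VIL1 was not called by limma-voom (adjusted p = 0.111) or with the replicate block (0.0714), nor CD14 without ASO replicate 3 (0.0519).

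SEC61A1, a translocon gene whose exons overlap 344 bases of RUVBL1 transcripts other than the principal one, was at 155, 363 and 157 CPM in ASO and 176, 178 and 192 CPM in NC. Its second ASO library stood apart, while RUVBL1 was lowest there among the ASO libraries.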
